A study of Mus musculus with 2 samples.

Results

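Cells chosen by a marker rule for anterior presomitic mesoderm were examined in mouse gastruloids with and without degradation of the Zeb2 protein. Anterior presomitic mesoderm is the tissue next in line to form a somite. A cell was taken as a front cell when it held at least 1 unique molecular identifier (UMI) of Aldh1a2, none of T or Eomes, at most 1 of Meox1, and at least 1 of 2 or more of the 6 genes Tbx6, Dll1, Dll3, Mesp1, Mesp2 and Cited1. Of 13826 cells passing the quality filter, 400 met this rule, with 232 of 6646 in the untreated library and 168 of 7180 in the dTAG-13 library. Both libraries came from E14 triple reporter embryonic stem cells in which the endogenous Zeb2 gene carries an HA-FKBP12F36V degron tag, a protein domain through which the small molecule dTAG-13 sends the tagged protein to the proteasome. Aggregates of 300 cells were exposed to 3 µM CHIR99021, a WNT pathway agonist, from 48 h and were embedded in 10% Matrigel from 96 h. The dTAG-13 library was given 100 nM dTAG-13 at 72 and 96 h, and the other library is labelled untreated, although the series description names DMSO for it. Each library was 1 pool of about 32 gastruloids, so no difference between the libraries has a replicate check, no test was made, and treatment and library cannot be told apart.

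During segmentation, cells leave the tail bud and move from high FGF and WNT signalling towards retinoic acid made by Aldh1a2 in the somites. Where the signals balance, at the determination front, a segment is fixed: Notch oscillations driven by Hes7 and Lfng slow, Tbx6 switches on the transcription factors Mesp1 and Mesp2, and Mesp2 sets the next boundary before Tcf15 and Meox1 mark the epithelial somite. Zeb2 is a zinc-finger repressor that binds paired E2 boxes and is known for silencing epithelial genes and for its interaction with SMAD proteins of the BMP pathway.

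Front cells were as deep as the rest of their libraries. The median was 20759.5 UMIs in untreated front cells and 21822.5 in dTAG-13 front cells, against library medians of 20520.5 and 20732.5. Summed over front cells there were 5309075 and 4351442 UMIs, from which levels were computed as CPM, the UMIs of a gene scaled to 1000000 UMIs in total. The libraries shared 11 barcodes among cells passing the filter and 0 among front cells. Intervals are 95% exact intervals and cover counting error only.

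The promoters of 3 genes are shown. Mesp2 was taken as a boundary gene that the rule counts, although most front cells held no Mesp2 UMI. Krt18 and Cldn7 had the largest ratios between the libraries of the epithelial genes at 20 CPM or more. Each stretch lies before the RefSeq start on GRCm38.p6, outside exons annotated by GENCODE M21, and is written 5′ to 3′ in gene orientation. Capitals mark the E2 box CACCTG, searched on both strands. The Mesp2 stretch is chr7:79810477-79810726 (plus strand), that of Krt18 is chr15:102027966-102028179 (plus strand) and that of Cldn7 is chr11:69964529-69964778 (plus strand).
Mesp2: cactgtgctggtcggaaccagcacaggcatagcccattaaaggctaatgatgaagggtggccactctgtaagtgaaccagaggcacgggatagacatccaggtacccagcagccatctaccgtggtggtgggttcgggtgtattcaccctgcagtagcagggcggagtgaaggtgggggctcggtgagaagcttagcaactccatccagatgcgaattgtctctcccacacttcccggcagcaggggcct
Krt18: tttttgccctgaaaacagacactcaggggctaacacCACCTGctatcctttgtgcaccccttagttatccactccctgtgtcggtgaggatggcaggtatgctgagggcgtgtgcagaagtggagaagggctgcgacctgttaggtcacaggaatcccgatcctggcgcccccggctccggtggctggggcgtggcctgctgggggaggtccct
Cldn7: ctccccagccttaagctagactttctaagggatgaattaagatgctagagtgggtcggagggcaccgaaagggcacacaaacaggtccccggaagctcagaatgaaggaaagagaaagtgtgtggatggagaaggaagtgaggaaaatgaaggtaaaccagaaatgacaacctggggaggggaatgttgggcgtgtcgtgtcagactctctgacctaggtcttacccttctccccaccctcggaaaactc
The Krt18 stretch held 1 E2 box, beginning 214 bases before the RefSeq start. That start follows base 102028215, beyond the end of the printed stretch. The stretches of Mesp2 and Cldn7 held none. A further RefSeq start within Cldn7 had 2 E2 boxes in the 250 bases before it, and Krt8, the neighbour of Krt18, had 1 at 111 bases before its RefSeq start. Unlike the printed stretches, these boxes of Cldn7 and Krt8 lie inside the genes as GENCODE annotates them. An E2 box lay in 17.2% of the 32851 windows of 250 bases before a start. Among genes of the epithelial list, 17 of the 23 with a window (73.9%) had one in at least 1 window, against 19.4% of all 27025 genes. The T-box core CACACC, also searched on both strands and sharing no bases with the E2 boxes in these windows, was in none of the windows of Mesp2, Krt18, Krt8 and Cldn7, and in 16.3% of all windows. A match of letters is a description and does not show binding.

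Front cells made up 3.49% of the untreated library (95% interval, 3.06 to 3.96) and 2.34% of the dTAG-13 library (2.0 to 2.72). Both neighbouring states were scarcer in the dTAG-13 library by more. Posterior presomitic cells, taken as cells with T and Tbx6 and without Eomes, were 10.7% of untreated and 3.62% of dTAG-13 cells. Somite cells, with at least 2 UMIs of Meox1, Tcf15 present and no T or Eomes, were 10.2% and 6.1%. Within these 3 gates the front therefore took a larger part in the dTAG-13 library, at 19.4% (16.8 to 22.2) against 14.3% (12.7 to 16.1). The posterior gate held 260 of these 866 dTAG-13 cells, against 708 of 1619 untreated cells (43.7%), and the somite part was 50.6% against 41.9%. The other cells, meaning all cells outside the front gate, thus differed in make-up between the libraries. The part of this in the ratios of other cells was not tested. Free RNA or doublets can make a cell meet such a rule, and the part of either was not tested. A pluripotent gate (at least 3 of Zfp42, Dppa5a, Tdh, Esrrb, Nanog and Klf4) should hold no front cells. In it, 7 of 630 untreated (1.11%) and 11 of 1057 dTAG-13 cells (1.04%) met the rule. The gate had median depths of 27530 and 29336 UMIs. Aldh1a2 itself had a UMI in 10.2% and 11.7% of that gate.

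**Figure D1:**
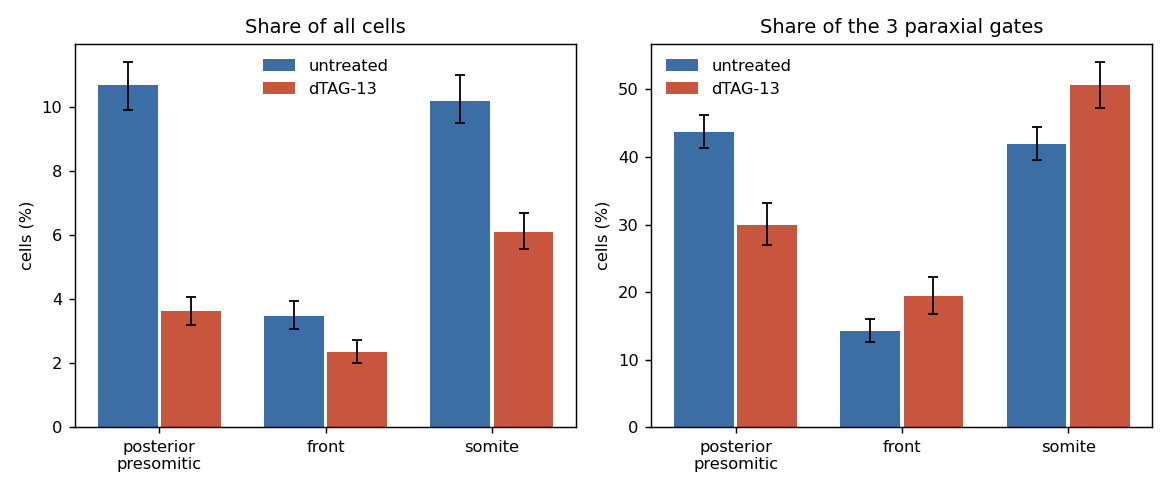
Bars show the percentage of cells in the posterior presomitic, front and somite gates, of all cells passing the quality filter (left) and of the cells in these 3 gates (right), for the untreated (blue) and dTAG-13 (red) library; error bars are 95% exact binomial intervals. Front cells were 3.49% of untreated and 2.34% of dTAG-13 cells, while their part of the 3 gates was 14.3% in the untreated and 19.4% in the dTAG-13 library.

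The rule has edges, and cells lay close to them. Among untreated front cells 61 held 2 of the 6 counted genes, 49 held 3, 95 held 4, 24 held 5 and 3 held all 6. Among dTAG-13 front cells the numbers were 51, 45, 47, 21 and 4. Just outside, 100 untreated and 96 dTAG-13 cells held only 1 of the 6 genes and met the rest of the rule. A single Aldh1a2 UMI carried 60 and 26 front cells in, and a single Meox1 UMI, the most allowed, was present in 52 and 52. A second Meox1 UMI alone kept 52 and 45 cells out, and 1 UMI of T alone 81 and 51.

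The genes that chose the cells are given as description. Cited1, a transcriptional co-regulator, had a UMI in 86.6% of untreated and 88.1% of dTAG-13 front cells, and the divergent Notch ligand Dll3 in 82.3% and 80.4%. The Notch ligand Dll1 was at 73.7% and 55.4%, and Tbx6, the T-box factor of presomitic mesoderm, at 55.6% and 42.3%. Mesp1 was at 31.5% and 48.2%, and Mesp2 at 9.48% and 15.5%. In CPM, Tbx6 stood at 63.7 in the untreated and 31.0 in the dTAG-13 library (log2 ratio -1.01), Dll1 at 109 and 63.9, Dll3 at 109 and 68.7, Mesp1 at 50.5 and 83.9 (0.72), and Mesp2 at 10.7 and 14.5. Aldh1a2, at 306 and 328 CPM, and Cited1, at 289 and 297 CPM, differed little. Since the rule counted these genes, their values describe the cells it admitted.

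Markers that the rule did not use were checked against the label. Pcdh19, a protocadherin expressed at forming somites (chromosome X, 133582860 to 133688987, minus strand), had a UMI in 72.0% of untreated and 73.8% of dTAG-13 front cells, against 17.5% and 10.8% of other cells. The forkhead gene Foxc2, needed for segmentation together with Foxc1, was at 31.9% and 40.5%, against 12.5% and 8.67%. At least 2 of the 4 genes Pcdh19, Foxc1, Foxc2 and Tcf15 were found in 69.0% and 72.0% of front cells, and in 9.68% and 9.84% of the pluripotent gate. The share was 21.2% untreated and 13.5% with dTAG-13 in all other cells. At least 1 of the 4 separated less. It was found in 90.9% and 91.1% of front cells, 64.9% and 57.1% of the pluripotent gate and 46.5% and 35.6% of other cells. Foxc2 and Tcf15 were higher still in the somite gate, so neither sets front cells apart from somite cells. Mesp2 did not peak in the front cells: it stood at 5.75, 10.7 and 20.2 CPM in the posterior, front and somite gates of the untreated library and at 3.91, 14.5 and 20.1 CPM in the dTAG-13 library. The Mesp2 partners of boundary formation were scarce too, with Ripply2 at 3.58 and 0.689 CPM in front cells. The front cells are thus an intermediate state by the rule, and most held no Mesp2 UMI.

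Genes of the posterior program were at intermediate levels in front cells. Fgf8, the FGF ligand of the tail bud, stood at 300 CPM in posterior, 102 in front and 31.1 in somite cells of the untreated library, and at 323, 77.7 and 34.9 CPM in the dTAG-13 library. The clock gene Hes7 stood at 224, 116 and 30.1 CPM, and with dTAG-13 at 141, 85.3 and 24.2. Rspo3, a secreted amplifier of WNT signalling, stood at 571, 282 and 89.6 CPM, and with dTAG-13 at 456, 227 and 97.9. These levels stepped down from posterior to somite cells in both libraries. The posterior gate asks for T and Tbx6, whereas the front and somite gates ask for no T. The part of this in the levels of tail bud genes was not tested. Other tail bud genes were nearly gone: Wnt3a was at 21.0 CPM in posterior and 1.51 in front cells without treatment and at 10.6 and 1.15 CPM with dTAG-13, and Fgf4 was at 43.8 and 3.20 CPM without treatment and at 31.9 and 4.83 CPM with dTAG-13.

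Somite genes ran the other way, upward from posterior to somite cells, although the somite gate itself asks for Tcf15, which fixes part of its step. Tcf15, the helix-loop-helix factor of somite epithelialisation, stood at 39.4, 103 and 352 CPM in posterior, front and somite cells of the untreated library and at 39.4, 101 and 287 CPM in the dTAG-13 library. Foxc2 stood at 10.5, 29.8 and 68.6 CPM, and with dTAG-13 at 12.4, 34.7 and 75.1. The homeobox gene Pax3, which marks the dermomyotome, was still low in front cells, at 19.0 and 12 CPM against 111 and 68.8 in somite cells. Uncx, which marks the posterior part of a somite, was at 0.753 and 0.919 CPM in front cells against 17.1 and 10.2 in somite cells.

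**Figure D2:**
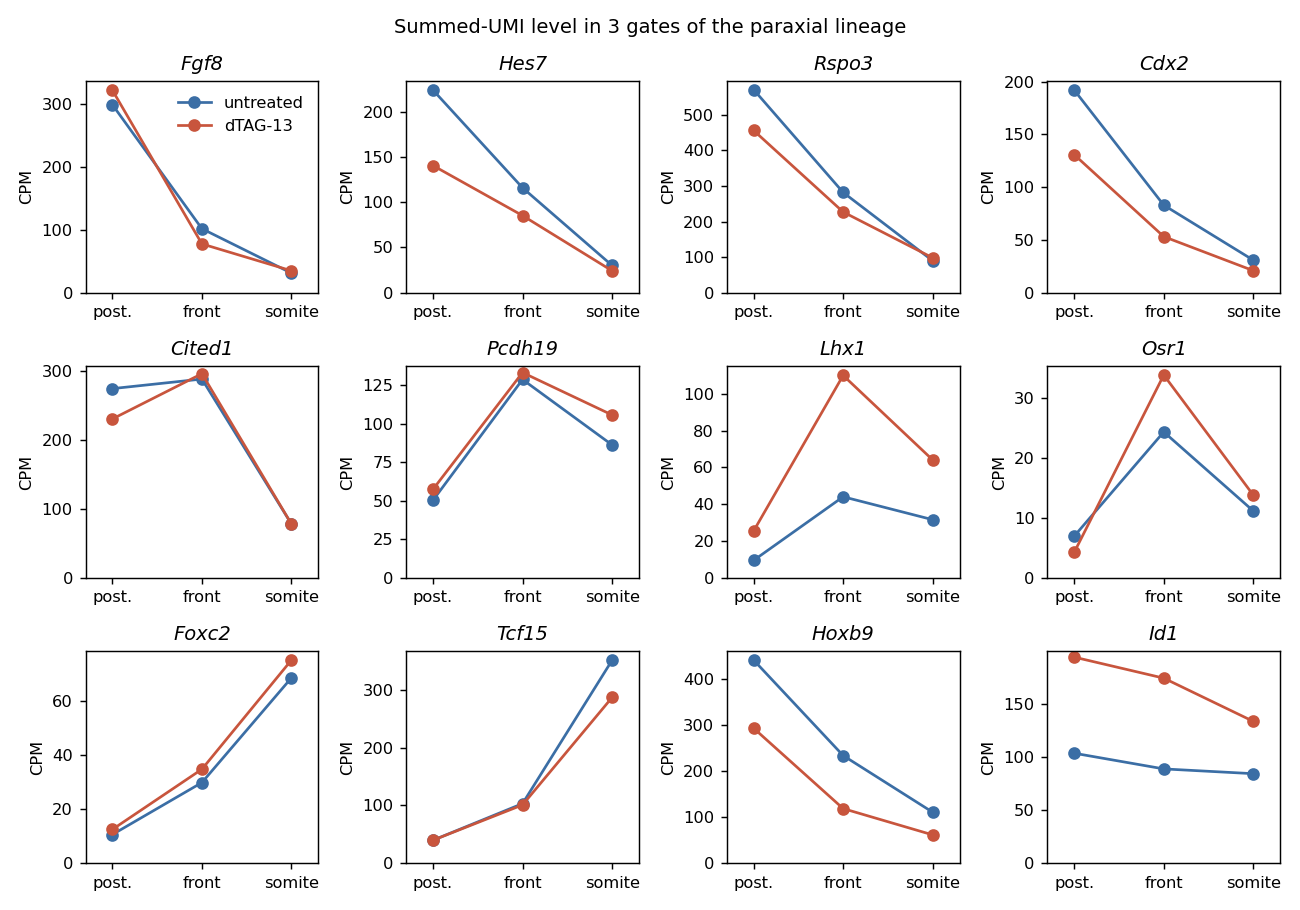
Each panel gives the level of 1 gene in CPM of summed UMIs (y axis, from 0) in the posterior presomitic, front and somite gates (x axis), with 1 point per gate for the untreated (blue) and dTAG-13 (red) library. Fgf8, Hes7, Rspo3 and Cdx2 step down from posterior to somite cells, Foxc2 and Tcf15 step up, and Pcdh19, Lhx1 and Osr1 are highest in front cells; Cited1 uses the rule's own counts.

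A small set of genes was higher in front cells than on either side. Pcdh19 stood at 50.3, 129 and 86.2 CPM in posterior, front and somite cells of the untreated library and at 57.4, 133 and 106 CPM in the dTAG-13 library. Osr1, a zinc-finger gene known from intermediate mesoderm, stood at 6.93, 24.3 and 11.1 CPM and at 4.24, 33.8 and 13.8 CPM. The ligand gene Fgf9 stood at 6.34, 16.6 and 5.89 CPM and at 7.81, 28.7 and 4.56 CPM. The ubiquitin ligase gene Rnf213 stood at 87.8, 117 and 44.2 CPM and at 81.9, 117 and 40.5 CPM. Phlda2, an imprinted growth regulator, stood at 41.2, 71.4 and 21.7 CPM and at 81.4, 146 and 51.6 CPM. Each of these genes was highest in the front gate in both libraries. Pcdh19 over somite cells and Rnf213 over posterior cells did not reach 1.5-fold in either library.

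Against all other cells, 153 of 8237 genes (1.86%) were at least 1.5-fold higher in front cells in both libraries and 325 (3.95%) at least 1.5-fold lower. After the rule genes, the highest were Pcdh19 (log2 ratio 2.39 untreated, 2.99 with dTAG-13), Osr1 (2.29, 3.11), the smooth muscle actin gene Acta2 (2.03, 2.42) and Rnf213 (1.94, 2.61). Then came the semaphorin receptor Plxna2, Lor, Pdzrn3, Fgf9, Lmo2, the cannabinoid receptor Cnr1, Snai1 and Pcolce2, with Snai1, a repressor of epithelial genes, at 1.69 and 2.13. The lowest included Krt18 (-2.01, -1.88), the stem cell genes Dppa5a (-2.68, -1.75), Tdh (-3.0, -1.72) and Utf1 (-2.05, -1.74), and the epithelial genes Sfn, Cldn6 and Crb3. Calcoco2, Mylpf, Trh, Hspb1 and Mbp completed them. Of the epithelial list, 13 of 15 genes tested were at least 1.5-fold lower in untreated front cells (background 4.08%) and 22 of 24 in dTAG-13 front cells (background 5.98%). Because front cells were chosen from these counts, the ratios describe the choice.

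The posterior gate asks for T, which front cells lack by rule, and the part of this in the ratios was not tested. Against posterior presomitic cells, 94 of 8156 genes (1.15%) were higher in both libraries and 181 (2.22%) lower. Lhx1, a LIM homeobox gene, led with log2 ratios of 2.11 and 2.07, and Osr1 (1.67, 2.73), Prrx2 (1.77, 1.59), Meis1 (1.52, 1.48), Foxc2 (1.42, 1.42), the imprinted RNA H19 (1.50, 1.40) and Twist1 (1.68, 1.37) followed. Tcf15, Hs3st3b1, Rasgrp3, Pcsk5 and Fgf9 were the rest of the 12 highest. The lowest held the tail bud ligands Fgf4 (-3.42, -2.50), Wnt3a (-3.13, -2.43) and Fgf17 (-2.42, -2.63), the caudal homeobox gene Cdx4 (-2.22, -2.69) and Sprr2a3 (-2.66, -3.22), besides Amph, Gnal, AY761185, Smim10l2a, Klhl32, St14 and Evx1os.

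The somite gate asks for Tcf15 and at least 2 Meox1 UMIs, which fixes part of the lower Tcf15 in front cells. The part of the gates in the other ratios was not tested. Against somite cells, 93 of 8020 genes (1.16%) were higher in both libraries and 93 (1.16%) lower. Hes7 led, at 1.91 and 1.78, followed by Hoxd9 (1.49, 1.91), Phlda2 (1.68, 1.49), Rnf213, Fgf9, Cdx2 (1.40, 1.31), Hoxaas3, Rspo3, Lor, Msx1, Fgf8 and Fgf3. The lowest were genes of maturing somites: Pax3 (-2.48, -2.43), the activin and BMP antagonist Fst (-1.80, -2.02), Nr2f2 (-1.71, -1.58), Tcf15 (-1.76, -1.50), Foxd1 (-2.57, -1.45), Dmrt2 (-2.57, -1.31) and the chemokine Cxcl12 (-2.74, -1.28), with Ets1, Plch1, Cdh11, Slc45a4 and the retinoid enzyme gene Rdh10.

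The few front cells with a Mesp2 UMI, 22 untreated and 26 dTAG-13, were set against the other front cells. Of 8411 genes, 107 (1.27%) were at least 1.5-fold higher in both libraries and 102 (1.21%) lower, from sums over few cells. Lfng, the glycosyltransferase that modulates Notch in the clock, stood at 40.4 CPM in Mesp2-positive and 8.35 in Mesp2-negative untreated cells (log2 ratio 2.15, interval 1.44 to 3.07), and at 25.8 and 9.05 CPM with dTAG-13 (1.41, 0.64 to 2.35). It was detected in 12 of the 22 and 8 of the 26 Mesp2-positive cells. The Notch target Hes5 was higher as well (0.77 and 1.73), as were Sparc (1.12 and 1.37) and Gadd45g (1.72 and 0.97). Hoxd9 (-2.40, -1.33), Hoxb6 (-1.13, -1.93) and Fgf9 (-1.47, -1.20) were lower. Among rule genes, Mesp1 was higher (1.65 and 1.82) and Tbx6 (-1.10, -1.77) and Cited1 (-1.90, -1.05) were lower in Mesp2-positive cells. Mesp2 itself counts towards the rule, so a Mesp2-negative cell needed more of the other counted genes to be admitted. Lower Tbx6 and Cited1 therefore follow in part from the rule. Tcf15 (1.25 and 0.21) and Foxc2 (1.51 and 0.58) were past 1.5-fold in the untreated library and neither was with dTAG-13.

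Spink4, Dppa3, Cenpl, Cars2, Wfdc2, Zfp42, L1td1 and Synm also belonged to the 12 highest. Spink4 and Dppa3 rested on 3 and 1 Mesp2-positive cells of the untreated library. Markers of other cell types moved with the same split. Pluripotent markers summed to 216 CPM in Mesp2-positive and 196 CPM in Mesp2-negative untreated cells, and to 648 and 302 CPM with dTAG-13. Endoderm markers summed to 156 and 141 CPM untreated and to 440 and 240 CPM with dTAG-13, and G2 and M phase genes to 4510 and 3427 CPM untreated and 3929 and 3614 CPM with dTAG-13. Their part in the ratios was not tested. The 12 lowest also held Lefty1, Rflnb, Pga5, Naaa, Arhgap29, Pik3c2b, Nmnat1, E2f8 and Prkag2.

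Zeb2 messenger RNA checks nothing about the degradation, since dTAG-13 acts on the protein. In front cells Zeb2 (chromosome 2, 44983632 to 45117395, minus strand) stood at 92.1 CPM (84.1 to 101) untreated and at 124 CPM (114 to 135) with dTAG-13, which gives 0.42 as log2 ratio (0.25 to 0.61). The ratio was 0.51 in posterior and 0.50 in somite cells.

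Most genes differed little between the libraries within front cells. Of 7845 genes with at least 10 CPM in 1 library, 156 (1.99%) were at least 1.5-fold higher with dTAG-13 and 105 (1.34%) at least 1.5-fold lower, and the median log2 ratio was 0.00. A gene under 10 CPM in 1 library was tested only through the other library, where it was higher, which can raise list counts and medians. Ratios carry a prior of 1 CPM, whereas intervals are of the counts alone. The 12 highest were Pga5, Klf2, Lefty1, Krt18, Rbmxl2, Cldn7, L1td1, Mybl2, Lhx1, Krt8, Zfp42 and Dppa5a. The 12 lowest were Hoxc8, Hoxc6, Hoxc9, Hoxb6, Fgfbp3, the antisense RNA Hoxaas3, Hoxb9, Hoxb7, Hoxb5os, Epha5 and the histone genes Hist1h2ap and Hist1h2ae. Fgfbp3, which carries FGF ligands, was at 25.1 and 10.8 CPM (-1.14), and the ephrin receptor gene Epha5 at 23.9 and 12.4 CPM (-0.89). Histone genes have near-identical copies, and overlapping or antisense genes cannot be told apart here as no source used here gives the strand setting, so the values of Hist1h2ap, Hist1h2ae, Hoxaas3 and Hoxb5os are uncertain.

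**Figure D3:**
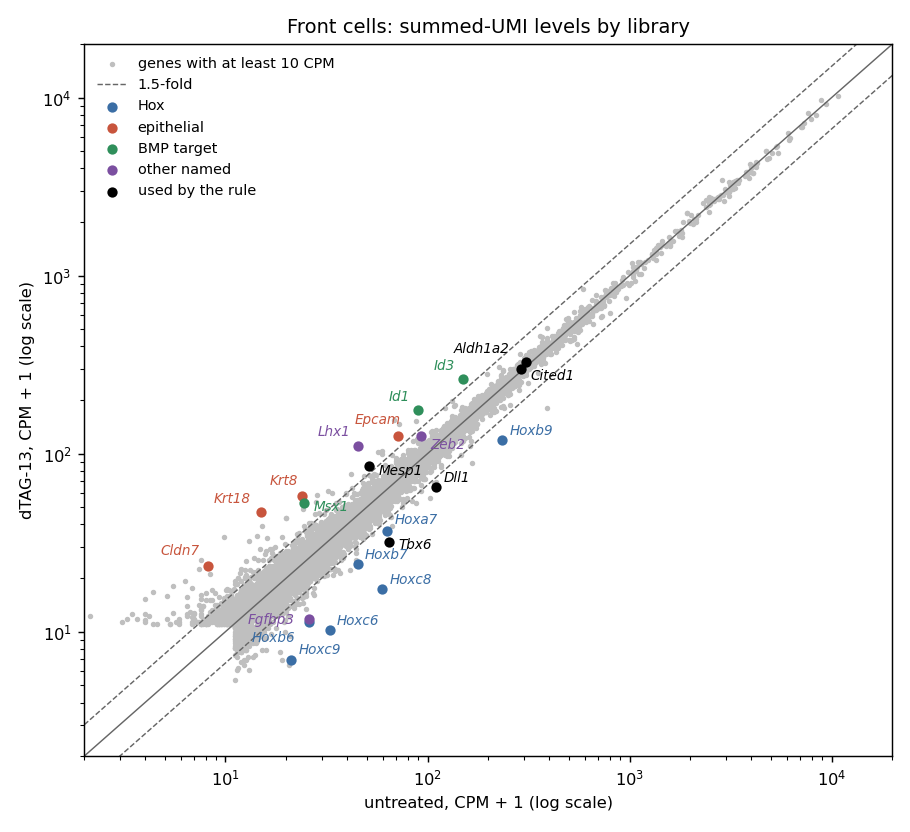
Each point is a gene, with its level in front cells as CPM + 1 of the untreated (x axis) and the dTAG-13 library (y axis), both on log scales; the solid line marks equality, the dashed lines 1.5-fold, and colours mark named groups. Most genes lie within the dashed lines, Hox genes such as Hoxc8 (58.8 and 16.3 CPM) lie below, and Lhx1 (44.1 and 110 CPM), Id1 and keratin genes lie above.

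Posterior Hox genes were lower in dTAG-13 front cells. Hox genes give cells their position along the body axis and switch on in order, the low-numbered groups first. Of the Hox genes of groups 5 to 9, 9 of 12 tested were at least 1.5-fold lower (background 1.34%) and 0 higher, and their median log2 ratio was -0.94. Hoxc8 (chromosome 15, 102990607 to 102994111, plus strand) stood at 58.8 CPM without and 16.3 CPM with dTAG-13 (-1.79, interval -2.24 to -1.47). Its neighbours Hoxc6, at 31.8 and 9.19 CPM (-1.69), and Hoxc9, at 20.2 and 5.98 CPM (-1.60), were lower too. Both reached the level for testing only through the untreated library. Hoxb9 stood at 233 and 118 CPM (-0.98, -1.13 to -0.83), Hoxb7 at 44.1 and 23.0 (-0.91) and Hoxa7 at 62.4 and 35.6 (-0.79).

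Fewer dTAG-13 front cells held a UMI of these Hox genes. Hoxb9 had a UMI in 57.8% of untreated and 37.5% of dTAG-13 front cells, Hoxc8 in 29.7% and 13.7%, and Hoxc6 in 28.0% and 13.7%. After thinning each cell to 5000 UMIs, Hoxb9 was found in 42.4% and 23.2% of front cells, against 14.7% and 13.4% of the pluripotent gate. Hoxc8 was found in 15.6% and 3.57%, and in 6.22% and 3.60% of the pluripotent gate, so the dTAG-13 value for Hoxc8 did not exceed this background. Per cell, the summed level of groups 5 to 9 had a median of 388 CPM (quartiles 83.9 and 971) in untreated and 181 CPM (37.4 and 547) in dTAG-13 front cells. The ranges of the libraries overlapped widely, from 0 to 3385 and from 0 to 2085 CPM.

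Not every Hox gene was lower. Hoxd9, at 31.8 and 31.3 CPM (-0.03), Hoxa5, at 21.9 and 20.9 CPM (-0.06), and Hoxb5, at 12.8 and 11 CPM (-0.20), differed by less than 1.5-fold. Of groups 1 to 4, 4 of 12 were at least 1.5-fold lower (background 1.34%) and 0 higher, with a median of -0.38. Hoxc4 (-1.01), Hoxa4 (-0.92), Hoxb2 (-0.67) and Hoxd3 (-0.60) were these 4. Groups 10 to 13 had no gene at 10 CPM. Hox genes were lower in the other cells of the dTAG-13 library as well, with 7 of 11 tested genes of groups 5 to 9 at least 1.5-fold lower (background 1.07%) and a median of -0.97. Hoxc8 was lower by the same measure in posterior (-0.84) and somite cells (-1.19), and Hoxc6 at -0.87 and -0.93. Whether front cells differ from those gates in the size of the change was not tested.

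**Figure D4:**
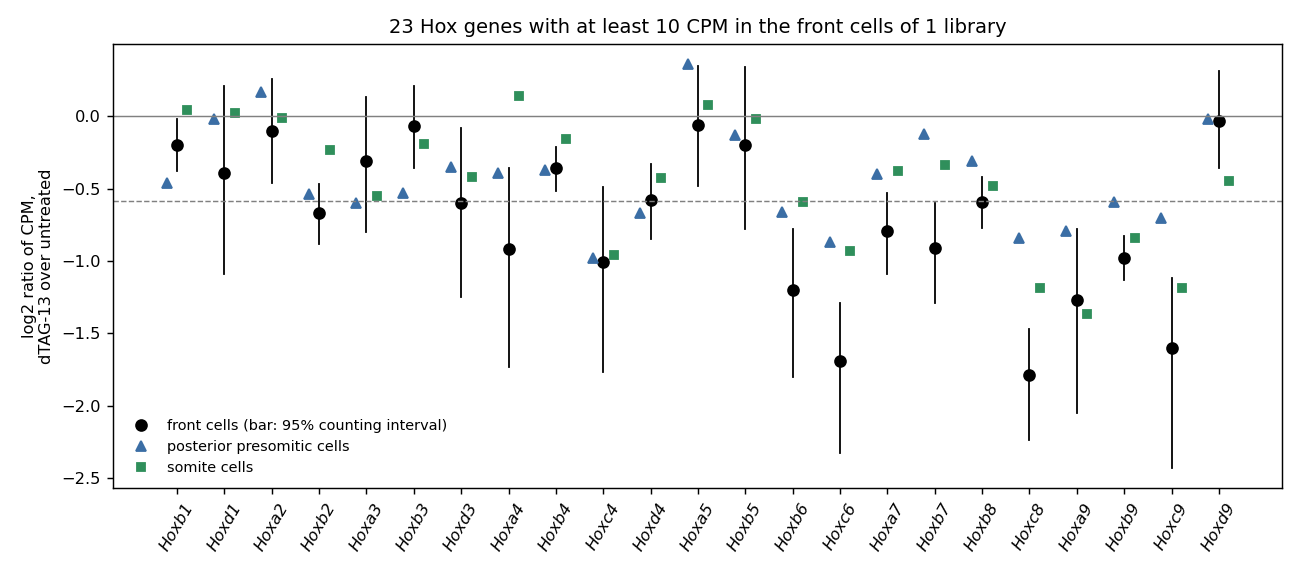
Points give the log2 ratio of CPM, dTAG-13 over untreated (y axis), for 23 Hox genes with at least 10 CPM, in front cells (black circles, bars are 95% counting intervals), posterior presomitic cells (triangles) and somite cells (squares); the dashed line marks 1.5-fold lower. From Hoxb6 on, front values lie below 0 for each gene, lowest for Hoxc8 (-1.79), and Hoxd9 lies near 0.

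The caudal homeobox genes, which act upstream of posterior Hox genes, did not move as one. Cdx2 stood at 82.9 and 53.1 CPM in front cells (-0.63, -0.88 to -0.41), while detection was alike at 44.4% and 44.0%. Cdx4 stood at 19.6 and 5.52 CPM (-1.66), from 24 and 7 cells, and 1 cell held 54.2% of its dTAG-13 UMIs. After thinning to 5000 UMIs before the rule the Cdx4 ratio was -0.17. Cdx1 was higher, at 21.5 and 34.2 CPM (0.65, 0.31 to 1.04).

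Lhx1 was higher in dTAG-13 front cells and was found in more of them. It lies on chromosome 11 (84518284 to 84525535, minus strand) and is known from intermediate mesoderm and from the gastrulating embryo. Lhx1 stood at 44.1 CPM (38.6 to 50.1) in untreated and 110 CPM (100 to 120) in dTAG-13 front cells, a log2 ratio of 1.30 (1.09 to 1.55). It had a UMI in 69 of 232 and 100 of 168 front cells, 29.7% and 59.5%. Thinned to 5000 UMIs the shares were 10.8% (7.13 to 15.6) and 33.9% (26.8 to 41.6), against 1.75% and 2.84% in the pluripotent gate. Posterior (9.46 and 25.4 CPM, 1.34) and somite cells (31.6 and 64.1 CPM, 1.00) were higher in the same direction, and all other cells less so (0.19). The front ratio ran from 1.13 to 1.47 over 14 alternatives.

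Other genes listed for intermediate mesoderm were set beside Lhx1. Of the 7 listed, 3 were tested and 2 were higher past 1.5-fold (background 1.99%), Lhx1 and Pax2, a paired-box gene at 9.61 and 15.2 CPM (0.61, 0.11 to 1.22). Pax2 reached the level for testing only through the dTAG-13 library. Osr1 stood at 24.3 and 33.8 CPM (0.46, 0.12 to 0.83) and in 15.1% and 26.8% of front cells. The other 4 genes were at low levels: Emx2 at 9.23 and 7.12 CPM, Gata3 at 3.58 and 5.52, Pax8 at 3.58 and 3.22, and Wt1 at 0 UMIs in both. Cells positive for Osr1 held Lhx1 in 65.7% of cases without and 82.2% with dTAG-13, against 23.4% and 51.2% of cells without Osr1. Mesp1 was found in 44.9% and 59.0% of Lhx1-positive front cells, against 25.8% and 32.4% of Lhx1-negative ones. Tbx6 went the other way, at 47.8% of Lhx1-positive and 58.9% of Lhx1-negative untreated cells and at 33.0% and 55.9% with dTAG-13. Deeper cells show more genes at once, so these shares are descriptions.

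Targets of BMP signalling were higher with dTAG-13. Of 8 tested genes of the BMP list, 4 were at least 1.5-fold higher (background 1.99%) and 0 lower, with a median of 0.58. Id1, an inhibitor of helix-loop-helix factors induced by BMP (chromosome 2, 152736251 to 152737410, plus strand), stood at 88.5 CPM (80.7 to 96.9) and 174 CPM (162 to 187), a ratio of 0.97. Id3 stood at 149 and 262 CPM (0.81), Id2 at 52.2 and 83.7 (0.67), and the homeobox gene Msx1 at 23.5 and 51.5 (1.10). An Id1 UMI was present in 60.8% and 78.0% of front cells, and after thinning in 29.4% and 51.2%. The receptor Bmpr1a, at 35.4 and 29.2 CPM (-0.27), the ligand Bmp7 at 14.1 and 15.6 CPM (0.14) and the antagonist Fst, at 73.5 and 66.6 CPM (-0.14), stayed within 1.5-fold. In all other cells the ratios were 0.42 for Id1, 0.47 for Id3, 0.18 for Id2 and 0.47 for Msx1, and 0 of 8 genes passed 1.5-fold. The neighbouring gates were like the front, with 4 of 8 genes higher in posterior cells (background 2.92%, median 0.53) and 3 of 8 in somite cells (background 0.638%, median 0.40). Differences between the gates were not tested.

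Epithelial genes were higher with dTAG-13 but remained low in front cells. Of the 34 listed, 12 were tested and 9 were at least 1.5-fold higher (background 1.99%), none lower, with a median of 1.10. Genes low in the untreated library, such as Cldn7, were tested only through their dTAG-13 level, which can raise this count and median. The paired keratins Krt18 (chromosome 15, 102028180 to 102032027), at 13.9 and 46.0 CPM (1.65, 1.33 to 2.13), and Krt8, at 23.0 and 56.8 CPM (1.27), were higher, as was the tight-junction gene Cldn7, at 7.16 and 22.3 CPM (1.51). Cldn6 (1.71), Cdh1, the E-cadherin gene (1.28), Krt19 (1.20), Cldn3 (1.01), Epcam (0.82) and Esrp1 (0.65) were past 1.5-fold too, while Spint2 (0.43), Dsp (0.40) and F11r (-0.10) were not. Epcam stood at 70.1 and 124 CPM, and its ratio was 0.18 without the cells of the highest doublet scores.

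The other cells of the dTAG-13 library were richer in the same genes, with 21 of 24 tested at least 1.5-fold higher (background 2.43%) and a median of 1.44. Front levels stayed well under those levels in both libraries: Krt18 was at 23.6% of the level in other cells without and 26.7% with dTAG-13, Krt8 at 34.6% and 29.4%, Epcam at 33.4% and 24.4%, and Cldn7 at 37.5% and 22%. The signal was uneven, since the 24 untreated front cells richest in epithelial UMIs held 58.7% of them and the richest 17 dTAG-13 front cells 64.3%. The median front cell had 127 CPM of the list without and 158 CPM with dTAG-13, against 381 and 1528 CPM in other cells. Krt18 had a UMI in 15.1% and 28.6% of front cells, and after thinning in 4.33% and 8.33%, against 3.70% and 8.90% of somite cells. The part of free RNA from epithelial cells and of doublets in this rise was not tested.

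Genes of naive pluripotency were unevenly spread over front cells. Klf2, at 8.85 and 32.9 CPM (1.78), Zfp42, at 13.4 and 33.6 (1.27), and Dppa5a, at 67.4 and 153 (1.17), were among the 12 highest ratios, and 5 of 7 tested pluripotent markers passed 1.5-fold (background 1.99%), with a median of 1.27. Klf2 reached the level for testing only through the dTAG-13 library. All 12 listed markers were detected in front cells, and they summed to 198 CPM without and 367 CPM with dTAG-13, against 887 and 1100 CPM in other cells. The 24 untreated front cells richest in these markers held 68.5% of their UMIs and the richest 17 dTAG-13 front cells 85.7%, and the median front cell had 62.7 and 58.6 CPM. Of front cells, 7 (3.02%) untreated and 11 (6.55%) dTAG-13 cells also met the pluripotent gate. Without them, the ratios of genes the gate did not count were -0.38 for Rbmxl2, 0.48 for Klf2 and 0.32 for L1td1. The marker median was then -0.73, with Zfp42 at -0.65 and Dppa5a at -0.88, but the gate counts Zfp42 and Dppa5a, so lower values of these follow in part from the removal itself. The ratios of Krt18 (1.83), Krt8 (1.23), Cldn7 (1.43), Lhx1 (1.38), Id1 (1.05) and Hoxc8 (-2.12) were past 1.5-fold without these cells. Mybl2, a cell-cycle factor at 12.1 and 31.5 CPM (1.32), was at 0.80.

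**Figure D5:**
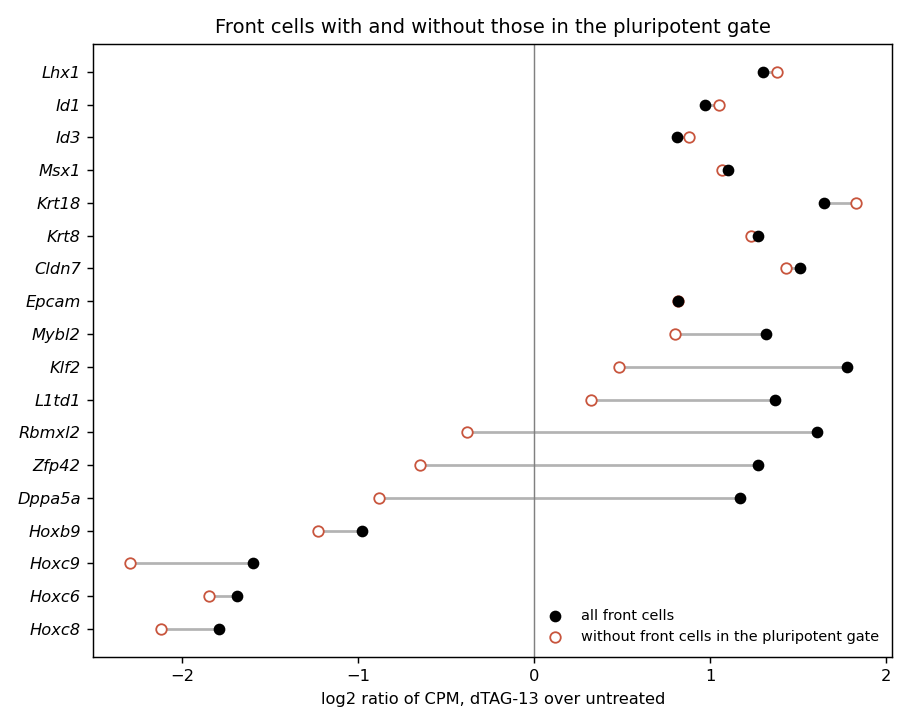
For each of 18 genes, the log2 ratio of CPM, dTAG-13 over untreated (x axis), is drawn for all front cells (filled) and without the 7 untreated and 11 dTAG-13 front cells that also met the pluripotent gate (open). Zfp42 and Dppa5a, which the gate counts, and Rbmxl2 change sign, Klf2 and L1td1 move towards 0, and the Hox, BMP target, epithelial genes and Lhx1 keep their side of 0.

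Of the Pga5 UMIs in dTAG-13 front cells, 98.2% came from 1 cell, and without the top cell of each library its ratio was 0.76 instead of 4.36. Lefty1, an inhibitor of Nodal signalling at 6.59 and 24.1 CPM (1.73), was detected in only 12 and 19 front cells, and its ratio was 1.90 without the top cell of each library and -0.37 after thinning. Lefty2, its neighbour in function, went the other way, at 65.4 and 38.4 CPM (-0.75).

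Markers of further cell types were read in the same cells. Endoderm markers summed to 142 CPM without and 277 CPM with dTAG-13, against 473 and 1016 CPM in other cells; 6 of 7 tested were higher (background 1.99%), among them Krt18, Cldn6 and Epcam, which are also epithelial genes. Surface ectoderm markers summed to 44.1 and 117 CPM, against 137 and 406, with Trp63 at 0 in both. Spinal cord markers summed to 219 and 148 CPM, with Olig2 and Dbx1 at 0. Of 13 markers of endothelium and blood, 7 were at 0 UMIs in each library, and Lmo2, at 73.8 and 49.2 CPM (-0.58), made up most of their sum. Of 16 cardiac and lateral plate markers, 13 were detected and their sums were 30.7 and 44.8 CPM; only Gata6, at 6.03 and 11.5 CPM (0.83), and Isl1 (0.62) reached the level for testing. Gata6 reached this level only through the dTAG-13 library. The part of these cell types in the ratios was not tested.

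Of 20 tested genes of the segmentation list, 2 were at least 1.5-fold higher (background 1.99%), the rule gene Mesp1 and the WNT antagonist Dkk1 (6.59 and 12.4 CPM, 0.82), and 2 lower (background 1.34%), the rule genes Dll1 and Dll3, with a median of -0.08. In somite cells 1 of 20 was higher (background 0.638%) and 2 lower (0.586%), with a median of -0.03, and in posterior cells 1 of 15 was higher (2.92%) and 4 lower (0.990%), with a median of -0.25. In all other cells, whose make-up differed between the libraries, 7 of 14 were at least 1.5-fold lower (background 1.07%) and the median was -0.62. Hes7 stood at 116 and 85.3 CPM in front cells (-0.44, -0.63 to -0.26), against -1.23 in other cells, a difference that was not tested, and was detected in 66.8% and 49.4% of front cells. The Notch feedback gene Nrarp was at 56.5 and 39.3 CPM (-0.51), Notch1 at 92.7 and 80.4 (-0.20), Lfng at 11.5 and 12.2 (0.08) and Hes1 at 36.4 and 38.8 (0.09). The rule selects on Dll1, Dll3, Mesp1, Mesp2 and Cited1, which limits what their ratios in front cells can show.

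Few genes of the signalling lists passed 1.5-fold, though for FGF more than the background. Of 18 FGF and ERK genes tested, 1 was higher (background 1.99%), Fgf15 (0.76), and 3 were lower (background 1.34%), Fgfbp3, Fgf17 at 22.8 and 14.5 CPM (-0.62) and the feedback inhibitor Spry4 at 13.6 and 8.27 CPM (-0.65), with a median of -0.03. The direct ERK targets Etv4, at 46.9 and 46.0 CPM (-0.03), and Dusp6, at 30.9 and 30.6 CPM (-0.01), were alike. Of 14 WNT genes 1 was higher, Dkk1, and 0 lower, with a median of -0.23; the WNT target Axin2 stood at 47.5 and 49.0 CPM (0.04) and the effector Lef1 at 235 and 185 CPM (-0.35). Of 12 retinoic acid genes 0 passed 1.5-fold and the median was 0.13, with the retinoid-binding gene Crabp1 at 360 and 459 CPM (0.35) and Crabp2 at 78.4 and 55.6 CPM (-0.49).

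Most mesenchymal genes stayed within 1.5-fold. Of 23 tested, 1 was higher (background 1.99%), Hs3st3b1 at 12.8 and 24.8 CPM (0.90), 2 were lower (background 1.34%), the laminin gene Lama1 at 26.2 and 15.4 CPM (-0.73) and Ncam1 at 86.5 and 51.9 CPM (-0.72), and the median was -0.05. Vim stood at 162 and 131 CPM (-0.31), the N-cadherin gene Cdh2 at 92.7 and 71.7 CPM (-0.37), Fn1 at 242 and 240 CPM (-0.01) and Snai1 at 22.6 and 19.5 CPM (-0.20). Of 9 Eph and ephrin genes, Efnb2, at 16.6 and 25.7 CPM (0.61), was higher and Epha5 lower. Of 20 S phase and 20 G2 and M phase genes, 0 passed 1.5-fold, with medians of -0.05 and 0.04. Among the stress and p53 genes and the glycolysis genes 0 passed as well, and 1 of 6 immediate early genes was lower.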

How the data were processed

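The values deposited by the authors are raw counts of unique molecular identifiers per gene and cell barcode for 32285 genes, made with Cell Ranger 6.1.2 on mm10, per the submitters' processing notes. The files held 158002807 UMIs in 7276 barcodes (untreated) and 176677276 in 7873 (dTAG-13). Barcodes with fewer than 1000 genes or over 10% mitochondrial UMIs were removed (630 and 693). Front cells were chosen by their counts; members and gene lists were chosen with earlier results of these data known. Doublets were kept: Scrublet (scanpy 1.11.5) called only 1 and 0 automatically, so its 424 and 496 highest scores were removed only as an alternative, which took 25 and 23 front cells. UMIs were summed per library and gate and scaled to CPM. Log2 ratios used a prior of 1 CPM, among genes with at least 10 CPM in 1 group, and a gene was called past 1.5-fold. Sums carry exact Poisson intervals, shares exact Clopper-Pearson intervals and ratios exact conditional intervals (95%, scipy 1.17.1). Detection shares were also computed after thinning cells to 5000 UMIs, which left out 1 untreated and 0 dTAG-13 front cells.

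Named genes were, for each comparison, the 12 top and 12 bottom ratios among genes reaching 20 CPM, leaving out predicted and rule genes, and members of 31 fixed lists. For comparisons within libraries they were ranked by the smaller of both libraries' ratios. Genes outside this rule that are named were list members. Of the gene identifiers, 32158 matched GENCODE M21 (GRCm38), and 2 list members matched no single gene. Alternatives were scaling by edgeR 4.0.16 (TMM) and DESeq2 1.42.0 (size factors), priors, filters, other edges of the rule, thinning, doublet removal, and settings chosen after seeing the data. A gene that reached the level for testing is not reported here by name. The scripts were tested on simulated data.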

Additional observations from a re-analysis of the deposited data

Results flagged for a closer look

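In 4 genes, all members of the lists, the ratio of dTAG-13 over untreated pointed opposite ways in front cells and all other cells. Both counting intervals were clear of 0. The difference itself was not tested. No share over all genes is given for such opposite ratios, so 4 cannot be read as many or few. The other cells also differed in make-up between the libraries, with smaller posterior and somite parts with dTAG-13, and the part of this was not tested. Epha4, an ephrin receptor of somite boundaries, stood at 60.5 and 44.4 CPM in front cells (-0.44) and at 35.8 and 39.9 CPM in other cells (0.15). Its front ratio was -0.02 after thinning before the rule. Crabp1, a retinoid-binding protein, was at 0.35 in front cells and -0.10 in other cells, and posterior (0.47) and somite cells (0.48) went with the front. Ddit4, a stress-induced inhibitor of mTOR signalling, was at -0.37 in front cells and 0.21 in others. Osr1 was at 0.46 in front cells and -0.37 in others, with -0.60 in posterior and 0.28 in somite cells; the front value ranged from 0.08 to 0.69 over the alternatives.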

How the results depend on the processing

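No paired analysis was possible because each group is 1 library, and for the same reason no replicate could be left out. Of 14 alternatives (11 for contrasts between gates, 8 for shares), 3 were chosen after seeing the data: leaving out front cells of the pluripotent gate, keeping only front cells with a UMI of Pcdh19, Foxc1, Foxc2 or Tcf15, and leaving out the top cell of each gene. Lhx1, Hoxc6, Hoxc8, Hoxc9, Hoxb6, Hoxb7, Hoxb9, Hoxa7, Krt18, Krt8, Cldn7, Id1, Id3 and Msx1 kept their direction and stayed past 1.5-fold in all 14. The changed CPM filters among them only alter which genes are tested, so they cannot move the ratio of a single gene. Asking for a UMI of Pcdh19, Foxc1, Foxc2 or Tcf15 kept 211 of 232 untreated and 153 of 168 dTAG-13 front cells. The median of Hox groups 5 to 9 ranged from -1.23 to -0.67 and that of epithelial genes from 0.53 to 1.41. TMM and DESeq2 scaling shifted ratios between the libraries in front cells by -0.0094 and -0.0239. Depth limits genes near 10 CPM and sums over the Mesp2-positive cells. Causes were not tested where none is stated.

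Ratios of dTAG-13 over untreated that were past 1.5-fold and changed sign were as follows. Without the highest doublet scores, the pluripotent median was -0.44, Dppa5a -0.21, Pga5 -0.39 and Zfp42 -0.31. With at least 3 of the 6 rule genes Dppa5a was -0.12, and with Meox1 at 0 UMIs Pga5 was -0.13. After thinning before the rule, the pluripotent median was -0.96, Dppa5a -0.96, Epha5 0.14, L1td1 -1.66, Lefty1 -0.37 and Zfp42 -0.49. Without front cells in the pluripotent gate, the pluripotent median was -0.73, Dppa5a -0.88, Rbmxl2 -0.38 and Zfp42 -0.65. Ratios within 1.5-fold changed sign too: with Meox1 at 0 UMIs the rule gene Mesp2 went from 0.40 to -0.22 and Foxc2 from 0.21 to -0.10, and with 2 Aldh1a2 UMIs Pcdh19 went from 0.05 to -0.07. The somite marker median (-0.03) kept its sign in 10 of 14 alternatives, reaching 0.28, and the segmentation median (-0.08) in 12, reaching 0.02.

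The untreated and dTAG-13 shares of front cells were 2.57% and 1.63% with 3 rule genes, 2.59% and 1.98% with 2 Aldh1a2 UMIs, and 2.71% and 1.62% without Meox1, by construction fewer cells. The difference of the shares stayed negative, from -1.20 to -0.610 points. Counts of genes past 1.5-fold, higher then lower, moved as follows. Between the libraries in front cells (main 156 and 105) they were 719 and 624 after thinning, 100 and 50 with a prior of 5 CPM, 71 and 47 at 20 CPM, and 734 and 482 with no CPM filter and at least 10 UMIs, while without Meox1 161 were lower. Over other cells (main 153 and 325) they were 263 and 510 after thinning and 259 and 813 without the CPM filter, and 215 (prior of 5 CPM) and 176 (20 CPM) were lower. Over posterior cells (main 94 and 181) they were 382 and 537 after thinning, 58 and 120 at 20 CPM and 200 and 389 without the CPM filter, and 62 were higher with a prior of 5 CPM. Over somite cells (main 93 and 93) they were 212 and 209 after thinning, 53 and 53 at 20 CPM and 217 and 199 without the CPM filter, and 52 were higher with a prior of 5 CPM. Between Mesp2-positive and Mesp2-negative front cells (main 107 and 102) they were 177 and 171 without the highest doublet scores, 233 and 268 without Meox1, 579 and 749 after thinning, 36 and 42 with a prior of 5 CPM, 41 and 38 at 20 CPM and 270 and 509 without the CPM filter, and 178 (3 rule genes) and 163 (2 Aldh1a2 UMIs) were higher.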

Other observations

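Genes high in front cells that the rule did not use differed in how the libraries compared. Phlda2 stood at 71.4 CPM in untreated and 146 CPM in dTAG-13 front cells (log2 ratio 1.02, 0.85 to 1.22) and was detected in 41.4% and 54.8% of them, with a like ratio in posterior (0.96) and somite cells (1.21) and 0.12 in all other cells. Fgf9 stood at 16.6 and 28.7 CPM (0.76, 0.39 to 1.20) against 0.26 in posterior, -0.31 in somite and -0.08 in all other cells. Acta2, at 43.5 and 24.4 CPM (-0.81), and Lmo2, at 73.8 and 49.2 CPM (-0.58), were lower in front cells and also in other cells (-1.21 and -0.96). Pcdh19, at 129 and 133 CPM (0.05), was nearly level in front cells and at -0.55 in other cells. Within the posterior and somite gates its level was higher with dTAG-13, while both gates were smaller parts of that library. These differences between front and other cells were not tested, nor was the part of the make-up of the other cells in them.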
